A study of Mus musculus with 13 samples.

Results

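The genes described here encode the subunits of respiratory complexes II, III, IV and V and cytochrome c, the carrier between complexes III and IV. They were chosen by symbol from the protein-coding genes of GRCm38: the genes of the succinate dehydrogenase subunits, Cyc1, Cycs, 6 genes of mitochondrial DNA, and all symbols starting with Uqcr, Cox4, Cox5, Cox6, Cox7, Cox8 or Atp5. This gave 55 of the 49315 genes counted: 4 of complex II, 10 of complex III, 1 of cytochrome c, 21 of complex IV and 19 of complex V, with 49 in nuclear DNA and 6 in mitochondrial DNA. The symbol rule also takes in Cox7a2l, a protein of respiratory supercomplexes, and Atp5s, a coupling factor of the ATP synthase, which are not core subunits. RNA-Seq was performed on whole midbrain of 13 male C57BL/6J mice of 8 to 12 weeks. All carried Ripk3 fl/fl and all received tamoxifen at 60 mg/kg for 5 days. R3AC+ mice were Ripk3fl/fl Aldh1l1Cre+, in which tamoxifen-induced recombination under the astrocyte promoter Aldh1l1 deletes Ripk3, and R3AC- mice were littermates labelled Ripk3fl/fl Aldh1l1Cre-. Mice then received MPTP at 20 mg/kg or saline once a day for 5 days, and tissue was taken 3 days after the last dose. The groups were R3AC- Saline (n = 3), R3AC+ Saline (n = 3), R3AC- MPTP (n = 3) and R3AC+ MPTP (n = 4), 1 animal per library.

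Complex II feeds electrons from succinate, and complex III passes electrons from ubiquinol to cytochrome c. Complex IV, cytochrome c oxidase, hands them to oxygen, and complex V uses the proton gradient made by the chain to synthesise ATP. Subunits come from both genomes, with cytochrome b of complex III and the catalytic core of complex IV encoded in mitochondrial DNA and most other subunits in the nucleus, and several complex IV subunits have a second isoform used in heart and skeletal muscle. MPTP is converted in the brain to MPP+, an inhibitor of complex I, so the complexes downstream of its known target were compared between treatments and genotypes.

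The muscle isoforms and their ubiquitous counterparts carry one of the results, and their sequences show that the pairs can be told apart. The first 60 bases of each coding sequence (GENCODE M21, GRCm38) are printed with the start codon in capitals. Cox6a1 lies at chr5:115345642-115348981 and Cox6a2 at chr7:128205435-128206387, Cox8a at chr19:7215158-7217616 and Cox8b at chr7:140898945-140900446, all on the minus strand.
Cox6a1: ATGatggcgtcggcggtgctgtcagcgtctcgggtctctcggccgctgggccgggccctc
Cox6a2: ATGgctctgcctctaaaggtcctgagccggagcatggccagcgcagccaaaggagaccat
Cox8a: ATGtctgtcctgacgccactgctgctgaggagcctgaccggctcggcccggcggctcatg
Cox8b: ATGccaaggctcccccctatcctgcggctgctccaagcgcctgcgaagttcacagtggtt
Over their whole coding sequences, Cox6a1 and Cox6a2 were 56.5% identical, Cox8a and Cox8b 53.0%, and the third such pair, Cox7a2 and Cox7a1, 60.9%.

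The opposite held for genes of mitochondrial DNA. Chromosome 1 carries a copy of part of the mitochondrial genome, and the first 60 coding bases of mt-Co2 (MT:7013-7696, plus strand), which encodes a catalytic subunit of complex IV, are the same letters as those of its copy Gm28661 (chr1:24614885-24615565). They are printed in lower case throughout because no base differs.
mt-Co2: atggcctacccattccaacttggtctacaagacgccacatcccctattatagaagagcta
Gm28661: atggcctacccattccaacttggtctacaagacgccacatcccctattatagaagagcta
The copy was identical over all 681 coding bases of mt-Co2. Annotated transcripts on chromosome 1 covered 100% of the coding bases of mt-Co2 and mt-Atp6 and 99.9% of those of mt-Co3. They covered 31.1% of mt-Co1, 19.9% of mt-Atp8 and none of mt-Cytb. Outside chromosome 1, mt-Co1 also had an annotated copy, Gm13340, which was 97.6% identical over 1542 aligned bases, the length of its coding sequence. Copies outside annotated transcripts were not sought. The authors counted unique hits, so a read that fits both places was not counted.

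Libraries held between 11489150 and 29397278 counts assigned to genes, and values are given as CPM, the counts per 1000000 counts of a library scaled with TMM factors. Ripk3 itself had 4 to 40 counts per library, too few to check the genotype of a mouse. R3AC- MPTP replicate 1 stood apart from the rest. It had the lowest total, and 21101 genes had a count in it, while the other 12 libraries had 25432 to 27186 such genes. The log2 ratio of this library to R3AC- MPTP replicates 2 and 3 correlated with transcript GC content over 19294 genes (r = 0.58, a description within these libraries). R3AC+ MPTP replicate 4 held RNA of heart muscle genes, and R3AC- Saline replicate 1 was the highest of the other 11 libraries for most members, as described further on. Results that rest on these libraries are given with and without them.

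Levels were compared between genes per kb of exon as the files give it, over the 6 Saline libraries. The highest were mt-Co1 (10629 CPM per kb) and mt-Cytb (7071 CPM per kb), which encode the catalytic subunit of complex IV and cytochrome b of complex III. Among nuclear genes the highest means were Cox6a1 (520.2 CPM per kb), Cox8a (456 CPM per kb), Cox4i1 (364 CPM per kb) and Atp5b (341 CPM per kb), the last encoding the catalytic beta subunit of ATP synthase. Sdha, the flavoprotein subunit of complex II, had 168 CPM per kb and Cycs, the gene of cytochrome c, 37.3 CPM per kb. The exon length joins all annotated exons of a gene and is long for some small subunits, such as 6443 bases for Atp5l, which lowers their value per kb.

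The tissue isoforms of complex IV were far lower. Cox7a1, Cox6b2, Cox4i2, Cox8b and Cox6a2 had 8.92, 4.84, 2.22, 2.05 and 1.55 CPM per kb in the Saline libraries. Cox8c was at 0 counts in all 13 libraries and Cox7b2 had 1 to 11 counts. These last genes were under the filter of 10 counts in at least 3 libraries, so 53 of the 55 members were tested.

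Of the 6 members in mitochondrial DNA, mt-Co1 and mt-Cytb had many counts and the other 4 had few. mt-Co1 was at 18318, 16762 and 14242 CPM in R3AC- Saline, 16752, 15226 and 17229 in R3AC+ Saline, 6127, 16033 and 16738 in R3AC- MPTP and 15998, 16968, 15882 and 23370.2 in R3AC+ MPTP. mt-Cytb had no annotated copy on chromosome 1. It was at 9167, 8577 and 7052 CPM in R3AC- Saline and 7994, 7425 and 8318 in R3AC+ Saline. In R3AC- MPTP it was at 2087, 7782 and 7809.8, and in R3AC+ MPTP at 7952, 8225, 7772 and 11381. Both were lowest in R3AC- MPTP replicate 1 and highest in R3AC+ MPTP replicate 4, and the other 11 libraries overlapped between all groups.

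mt-Atp6, the proton channel subunit of complex V, was at only 3.73, 2.11 and 1.94 CPM in R3AC- Saline, 2.29, 2.77 and 3.58 in R3AC+ Saline, 2.06, 4.48 and 3.47 in R3AC- MPTP and 2.51, 3.47, 2.04 and 2.71 in R3AC+ MPTP. mt-Co2, mt-Co3 and mt-Atp8 ranged from 1.29 to 2.69, 1.02 to 3.24 and 0.730 to 1.55 CPM. The copies Gm28661, Gm10925 and Gm28437 themselves had medians of 2.28, 4.25 and 5.03 CPM. For mt-Co2, mt-Co3 and mt-Atp6 these levels are of reads that fit 1 place only and are not levels of the mitochondrial transcripts. For mt-Atp8 no annotated copy was found over most of its bases, and what made its counts low was not tested.

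**Figure D1:**
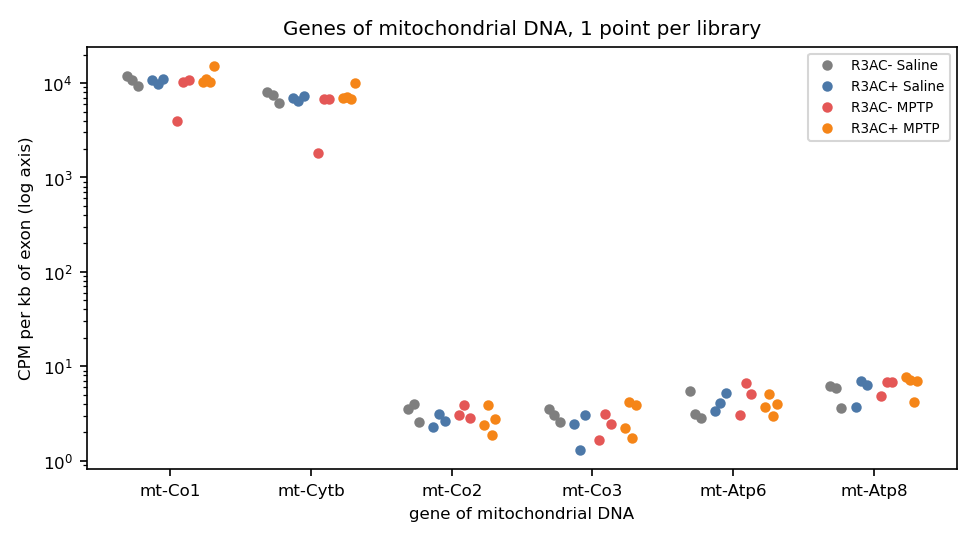
CPM per kb of exon (log axis) of the 6 member genes of mitochondrial DNA, with 1 point per library coloured by group. mt-Co1 and mt-Cytb sit near 10629 and 7071 CPM per kb in Saline, while the 4 genes to their right, among them mt-Co2 and mt-Atp6 with identical copies on chromosome 1, sit below 10 CPM per kb.

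As a share of all counts, the 6 genes took 2.15% to 2.78% in the 6 Saline libraries. The share was 0.66%, 2.44% and 2.53% in R3AC- MPTP and 2.44%, 2.54%, 2.46% and 3.49% in R3AC+ MPTP. The 49 nuclear members took 0.834% to 1.03% in Saline, 1.45%, 0.761% and 0.826% in R3AC- MPTP and 0.767%, 0.818%, 0.808% and 1.05% in R3AC+ MPTP. R3AC- MPTP replicate 1 thus had the lowest mitochondrial and the highest nuclear share of the 13 libraries, and R3AC+ MPTP replicate 4 was highest of 13 for the mitochondrial share and above the other R3AC+ MPTP libraries for the nuclear one.

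No member passed the test in any comparison when all 13 libraries were used (quasi-likelihood F test of edgeR, p adjusted after Benjamini-Hochberg over all genes, calls under 0.05). For MPTP against Saline in R3AC- mice, 0 of 53 members passed against 3.18% of the 19360 genes tested. For MPTP against Saline in R3AC+ mice, 0 members passed and 0% of all genes. For R3AC+ against R3AC- mice under MPTP, 0 members passed against 1.54% of all genes, under Saline 0 and 0%, and for the interaction of genotype and treatment 0 and 0.0103%. At an unadjusted p under 0.05 there were 13, 2, 13, 1 and 3 members in these 5 comparisons, in the same order, against 14.96%, 3.47%, 19.0%, 0.909% and 5.76% of all genes. DESeq2 called 4 members lower with MPTP in R3AC- mice (1.96% of all genes lower) and none elsewhere. limma voom with sample quality weights called 8 lower (6.46% of all genes) and 1, mt-Atp6, higher (7.09% of all genes) in that comparison and none elsewhere.

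In the heat map of the members, the largest departures from the median of a gene belonged to single libraries and not to groups.

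**Figure D2:**
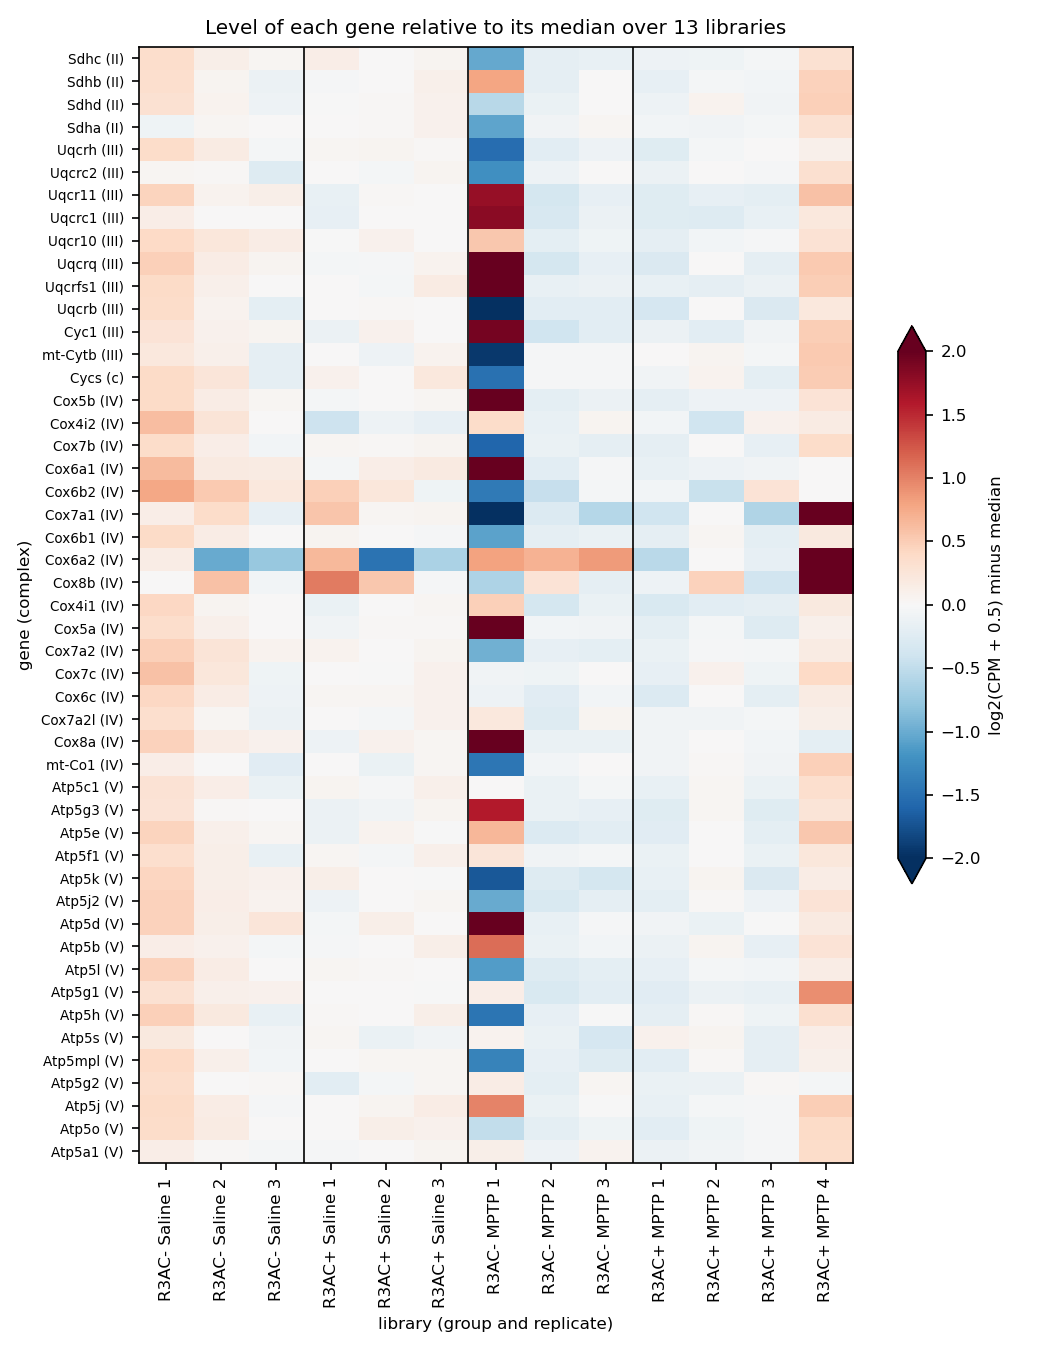
Level of 49 members (rows, with their complex) in 13 libraries (columns), as log2(CPM + 0.5) minus the median of the gene, with colours cut at 2 either way. R3AC- MPTP replicate 1 holds both strong red and strong blue, Cox6a2, Cox7a1 and Cox8b are at the red limit in R3AC+ MPTP replicate 4, R3AC- Saline replicate 1 is mostly pale red and R3AC- MPTP replicates 2 and 3 mostly pale blue. The 4 scarcely counted genes of mitochondrial DNA and the 2 members under the filter are left out.

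In R3AC- MPTP replicate 1 the members split in both directions. It was the highest of 13 libraries for 17 members and the lowest for 21, against 33.8% and 41.7% of all genes tested. Against the mean of R3AC- MPTP replicates 2 and 3, 13 nuclear members were over 2-fold higher, 11 over 2-fold lower and 23 within 2-fold, so that 51.1% were over 2-fold either way against 39.9% of all genes. Subunits of the same complex went opposite ways. Cox6a1 was at 486, 355 and 349.5 CPM in R3AC- Saline, 305, 342 and 353 in R3AC+ Saline, 2754, 271 and 307 in R3AC- MPTP and 283, 292, 298 and 313 in R3AC+ MPTP. Cox5b, another small complex IV subunit, was at 296, 253 and 234 CPM in R3AC- Saline, 223, 228 and 234 in R3AC+ Saline, 1759, 199 and 209.7 in R3AC- MPTP and 202, 212, 211 and 277 in R3AC+ MPTP. Cox5a was at 129, 108 and 101 CPM in R3AC- Saline, 95.9, 103 and 103 in R3AC+ Saline, 555, 97.2 and 96.6 in R3AC- MPTP and 88.4, 98.6, 84.4 and 108 in R3AC+ MPTP. In the other 12 libraries these genes reached at most 486, 296 and 129 CPM.

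Within complex III, Uqcrc1, a core subunit, was at 292, 267 and 268 CPM in R3AC- Saline, 237, 268 and 268 in R3AC+ Saline, 939, 215 and 247 in R3AC- MPTP and 225, 223, 241 and 309 in R3AC+ MPTP. Uqcrb, a small subunit of the same complex, went the other way and had 13.4 CPM in replicate 1 against 60.4 to 97.9 in the other libraries. Cycs, the gene of cytochrome c, was at 151, 137 and 102 CPM in R3AC- Saline, 123, 116 and 134 in R3AC+ Saline, 40.9, 113 and 114 in R3AC- MPTP and 111, 122, 101 and 164 in R3AC+ MPTP. Sdha was at 611, 665 and 648 CPM in R3AC- Saline, 654, 656 and 689 in R3AC+ Saline, 312, 618 and 668 in R3AC- MPTP and 624, 615, 631 and 803 in R3AC+ MPTP. In these last 3 genes replicate 1 lay below all other libraries. The nuclear members over 2-fold higher in replicate 1 had a median transcript GC of 51.6% and those over 2-fold lower 46.9%, and over the 47 tested nuclear members GC correlated with the log2 ratio at r = 0.34 (a description, with members of 1 library). What part GC or RNA quality had in this library was not tested.

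Between the genotypes under MPTP, the 3 members with the smallest p were all highest in this library. They were Cox6a1 (log2 fold change -1.90, SE 0.61, adjusted p = 0.173, edgeR), Cox5a (-1.39, SE 0.479, adjusted p = 0.191) and Cox5b (-1.68, SE 0.583, adjusted p = 0.193). Without R3AC- MPTP replicate 1 the log2 fold changes were 0.034 for Cox6a1, -0.034 for Cox5a and 0.14 for Cox5b. The largest log2 fold changes of members in this comparison went the other way and were those of muscle isoforms high in R3AC+ MPTP replicate 4, with 4.52 for Cox8b (SE 1.64, adjusted p = 0.199 by edgeR), 3.32 for Cox7a1 (SE 1.19, adjusted p = 0.199) and 2.90 for Cox6a2 (SE 1.47, adjusted p = 0.301). Without both libraries these were -0.11, 0.12 and -1.29. Leaving out R3AC- MPTP replicate 2 instead gave 7 members called lower in R3AC+ mice, among 8.23% of all genes, and leaving out replicate 3 gave 1, Cox6a1, among 2.33%. The libraries of the 2 groups did not overlap for 3 members, higher in R3AC+ mice (Atp5l, Cox7a2 and Sdhc; 6.25% of all genes), and for 0 members lower (5.07% of all genes).

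In R3AC+ MPTP replicate 4 the muscle isoforms of complex IV stood out. Cox6a2 was at 1.67, 0.469 and 0.657 CPM in R3AC- Saline, 2.56, 0.203 and 0.761 in R3AC+ Saline, 2.93, 2.65 and 3.04 in R3AC- MPTP and 0.850, 1.45, 1.24 and 82.3 in R3AC+ MPTP. Cox7a1 was at 4.60, 5.51 and 3.65 CPM in R3AC- Saline, 6.31, 4.27 and 4.30 in R3AC+ Saline, 0.217, 3.33 and 2.61 in R3AC- MPTP and 3.03, 4.14, 2.57 and 77.9 in R3AC+ MPTP. Cox8b was at 0.437, 0.898 and 0.402 CPM in R3AC- Saline, 1.42, 0.854 and 0.419 in R3AC+ Saline, 0.108, 0.634 and 0.330 in R3AC- MPTP and 0.370, 0.783, 0.222 and 35.4 in R3AC+ MPTP. These isoforms were at least 10 times higher in this library than in any other, and in the other R3AC+ MPTP libraries none exceeded the highest Saline library.

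The muscle isoform made up 20.8% of Cox6a2 plus Cox6a1 in replicate 4 against 0.0594% to 0.979% in the other 12 libraries. Cox7a1 made up 46.6% of Cox7a1 plus Cox7a2 against 0.532% to 7.07%, and Cox8b 15.2% of Cox8b plus Cox8a against 0.00777% to 0.667%. The ubiquitous partners differed far less. Replicate 4 had 313 CPM of Cox6a1 and 89.4 CPM of Cox7a2, each the highest of the R3AC+ MPTP libraries and within the range of the other 12, and its 198 CPM of Cox8a was the lowest of the 13.

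**Figure D3:**
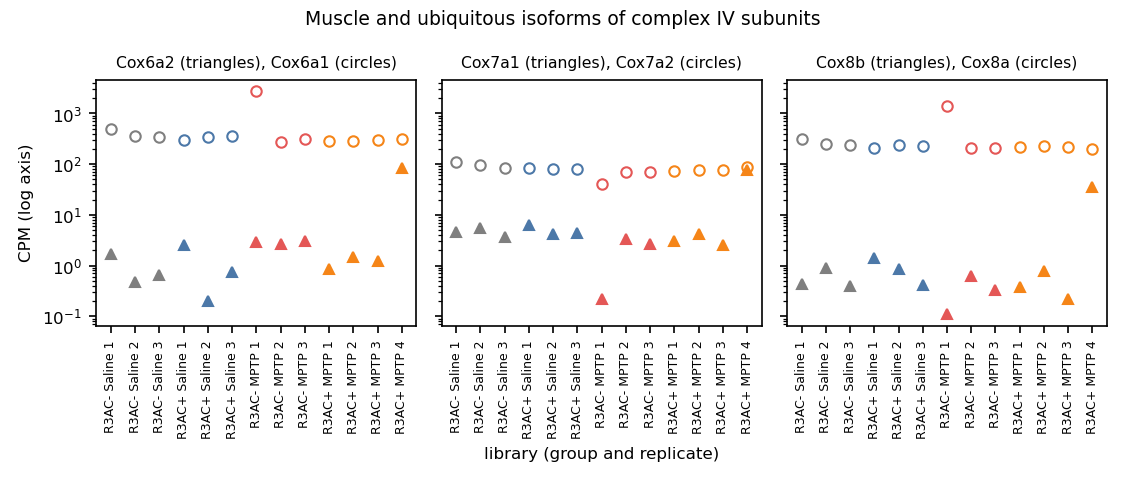
CPM (log axis) of the muscle isoforms (triangles) and ubiquitous isoforms (circles) of 3 complex IV subunits in each of 13 libraries, coloured by group. In R3AC+ MPTP replicate 4, Cox6a2 (82.3 CPM), Cox7a1 (77.9 CPM) and Cox8b (35.4 CPM) stand above all other libraries, and in R3AC- MPTP replicate 1 Cox6a1 (2754 CPM) and Cox8a (1395 CPM) do.

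The same library carried genes of working heart muscle. Myh6, the cardiac alpha-myosin heavy chain, was at 3296 CPM against 3.14 to 78.3 in the other 12 libraries. Myoglobin (Mb) was at 1182 against 0.542 to 21.3 and cardiac troponin T (Tnnt2) at 847 against 3.79 to 24.3. The summed level of the 22 heart and skeletal muscle markers was 8430.1 CPM in replicate 4 and 36.5 to 215 CPM in the others. The defining genes of fast skeletal muscle, Myh1, Myh4, Mylpf and Tnnt3, were at 0.191, 0.0382, 1.41 and 0.458 CPM, within the range of the other libraries. Of the atrial genes, Myl7 and Nppa were at 0.305 and 8.78 CPM, above the highest of the other libraries (0.185 and 0.832 CPM). Myl4 and Sln, also atrial, were at 1.26 and 0.267 CPM, within the range of the other libraries. R3AC+ Saline replicate 1 was the highest of the other 12 libraries for Myh6, Mb and Tnnt2 and held the most Cox7a1 (6.31 CPM) and Cox8b (1.42 CPM) among them. The 22 markers summed to 42.9, 106 and 72.0 CPM in R3AC+ MPTP replicates 1 to 3 and to at most 58.6 CPM in R3AC- libraries. Myh6 was at 10.3, 19.9 and 23.8 CPM in those 3 R3AC+ libraries and at 3.14 to 13.4 CPM in R3AC- libraries. Acta1 was higher in R3AC+ MPTP replicate 2 (32.5 CPM) than in replicate 4 (21.4 CPM).

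Many other members were also highest in R3AC+ MPTP replicate 4. It was the highest of 13 libraries for 14 members against 8.42% of all genes, and the lowest for 1, Cox8a, against 6.2%. Atp5g1, which encodes the c-ring of ATP synthase, was at 176, 153 and 151 CPM in R3AC- Saline, 144, 143 and 142 in R3AC+ Saline, 157, 116 and 124 in R3AC- MPTP and 122, 131, 129 and 274 in R3AC+ MPTP. Replicate 4 was 2.15 times the mean of R3AC+ MPTP replicates 1 to 3 for Atp5g1, 1.29 times for Sdha and 1.48 times for Cycs. With all libraries, the log2 fold changes of MPTP against Saline in R3AC+ mice were 4.19 for Cox6a2 (SE 1.58), 3.36 for Cox8b (SE 1.48) and 2.15 for Cox7a1 (SE 1.11), each with an adjusted p of 1.00 (edgeR). Without replicate 4 they were -0.0011, -0.998 and -0.62. The Saline side of this comparison holds R3AC+ Saline replicate 1, the highest Saline library for each of these genes.

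For MPTP against Saline in R3AC- mice, the 3 members with the smallest p were subunits of complexes IV and V. Cox7a2, the ubiquitous form of a small complex IV subunit, was at 111, 94.6 and 83.3 CPM in R3AC- Saline, 82.9, 79.4 and 82.0 in R3AC+ Saline, 40.5, 70.8 and 69.0 in R3AC- MPTP and 72.3, 77.8, 76.8 and 89.4 in R3AC+ MPTP. Atp5j2, the f subunit of ATP synthase, was at 134, 106 and 102 CPM in R3AC- Saline, 89.96, 96.8 and 99.98 in R3AC+ Saline, 47.9, 78.5 and 85.0 in R3AC- MPTP and 84.3, 98.7, 90.1 and 118 in R3AC+ MPTP. Atp5l, the g subunit, was at 105, 84.4 and 76.0 CPM in R3AC- Saline, 77.9, 77.0 and 76.0 in R3AC+ Saline, 34.8, 63.8 and 66.2 in R3AC- MPTP and 67.6, 73.6, 73.5 and 84.3 in R3AC+ MPTP. In each gene all 3 R3AC- MPTP libraries lay below all 3 R3AC- Saline libraries, with replicate 1 lowest.

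The log2 fold changes with all libraries were -0.67 for Cox7a2 (SE 0.193, adjusted p = 0.0991, edgeR), -0.69 for Atp5j2 (SE 0.206, adjusted p = 0.116) and -0.68 for Atp5l (SE 0.213, adjusted p = 0.137). In R3AC+ mice the same changes were -0.04, 0.03 and -0.04. The interaction of genotype and treatment was 0.63 for Cox7a2 (adjusted p = 0.795), 0.73 for Atp5j2 (adjusted p = 0.743) and 0.64 for Atp5l (adjusted p = 0.795), and these were the 3 smallest p of the members there. DESeq2 called these 3 genes and Cox6b2 lower in R3AC- mice.

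The groups did not overlap for 13 members lower with MPTP in R3AC- mice, against 8.02% of all genes, and for 1 member higher, Cox6a2, against 7.11%. In R3AC+ mice there were 0 members lower (4.61% of all genes) and 0 higher (5.06%). Over the 53 members the median log2 fold change was -0.18 in R3AC- mice, where all genes had 0.03, and -0.01 in R3AC+ mice, where all genes had 0.00.

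The picture of MPTP and Saline changed when R3AC- MPTP replicate 1 and R3AC+ MPTP replicate 4 were both left out, with 2 R3AC- MPTP and 3 R3AC+ MPTP libraries remaining. In R3AC- mice 14 members were then called lower and 0 higher, against 4.51% of 19148 genes called lower (edgeR). They were Sdhc of complex II, Cyc1, Uqcr10, Uqcr11 and Uqcrq of complex III, Cox5b, Cox6a1 and Cox7a2 of complex IV, and Atp5d, Atp5e, Atp5g1, Atp5j2, Atp5k and Atp5l of complex V. Their log2 fold changes ran from -0.51 to -0.33, a percent change of -30.01 to -20.7. The medians were -0.29 over the members and 0.00 over all genes, and 46 of 53 members were below 0.

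Atp5k, the e subunit of ATP synthase, had the largest fall among them. It was at 65.5, 52.4 and 51.3 CPM in R3AC- Saline, 52.6, 48.4 and 48.0 in R3AC+ Saline, 14.6, 40.4 and 37.8 in R3AC- MPTP and 43.5, 50.1, 39.7 and 53.5 in R3AC+ MPTP, and its log2 fold change without the 2 libraries was -0.51 (SE 0.122, adjusted p = 0.017, edgeR). Uqcrq, a small subunit of complex III, was at 132, 104 and 98.4 CPM in R3AC- Saline, 91.6, 92.5 and 99.1 in R3AC+ Saline, 594, 73.6 and 84.1 in R3AC- MPTP and 77.4, 94.4, 82.9 and 136 in R3AC+ MPTP, with a log2 fold change of -0.49 (SE 0.127, adjusted p = 0.0269). Uqcr10 was at 70.7, 62.9 and 59.2 CPM in R3AC- Saline, 53.3, 56.6 and 53.6 in R3AC+ Saline, 78.4, 46.7 and 50.7 in R3AC- MPTP and 47.1, 51.4, 52.7 and 65.5 in R3AC+ MPTP, with -0.39 (SE 0.0958, adjusted p = 0.0211). In each gene R3AC- MPTP replicates 2 and 3 lay below all R3AC- Saline libraries, while replicate 1 was far below the others for Atp5k and far above them for Uqcrq.

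Cox7a2 fell by 0.45 (SE 0.105, adjusted p = 0.0161), Atp5j2 by 0.47 (adjusted p = 0.0225) and Atp5l by 0.43 (adjusted p = 0.0303) in the same fit of edgeR. Atp5g1 fell by 0.41 (SE 0.0872) and had the smallest adjusted p, 0.0096, of the members. Among the 14, 6 have a near-identical copy elsewhere in the genome and 2 overlap a gene on the other strand, so part of their reads could have been left uncounted or counted elsewhere.

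**Figure D4:**
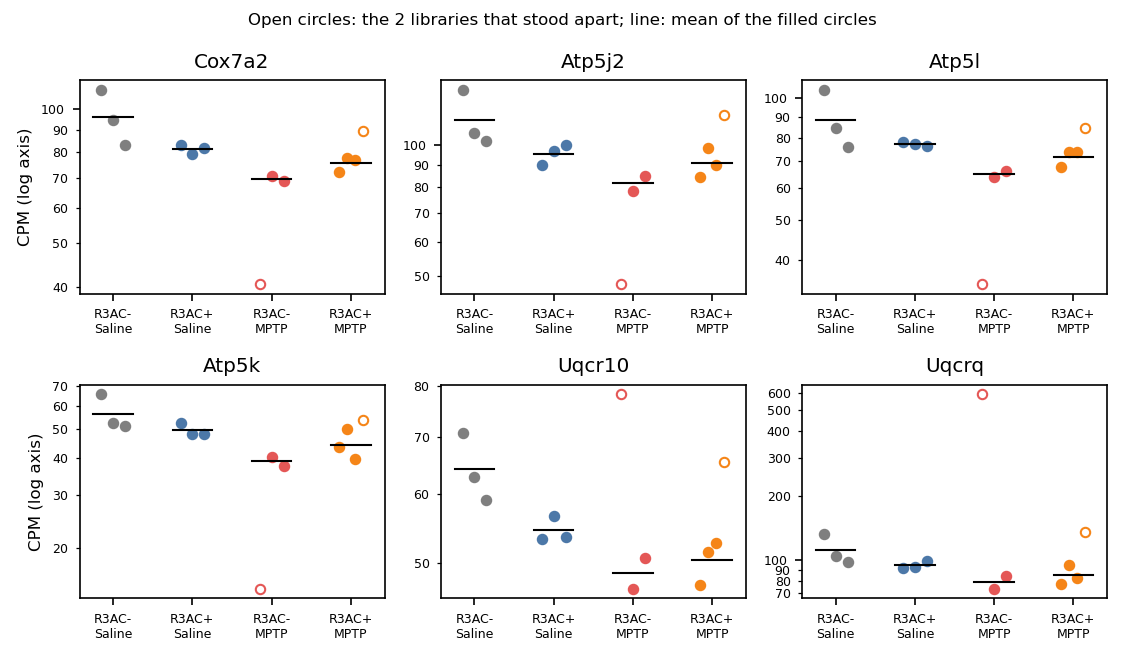
CPM (log axis) of 6 of the 14 members called lower with MPTP in R3AC- mice once 2 libraries were left out, in the 4 groups, with 1 circle per library. Open circles are R3AC- MPTP replicate 1 and R3AC+ MPTP replicate 4, and lines are means of the filled circles. In all 6 genes the filled circles of R3AC- MPTP lie below the R3AC- Saline circles. The filled circles of R3AC+ MPTP lie below the R3AC+ Saline circles for Cox7a2, Atp5l and Uqcr10 and overlap them for Atp5j2, Atp5k and Uqcrq.

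In R3AC+ mice the same 14 members had log2 fold changes from -0.19 to -0.06 without the 2 libraries, none of them called (smallest adjusted p = 0.728, edgeR). The median over 53 members was -0.12 with 0.01 over all genes, and 47 of 53 were below 0. The 3 remaining R3AC+ MPTP libraries lay below all 3 R3AC+ Saline libraries for 19 members, against 6.93% of all genes, and above them for 0 (6.88%). In R3AC- mice the remaining 2 libraries lay below the 3 Saline libraries for 30 members, against 20.9% of all genes, and above them for 2 (19.1%).

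The difference between the genotypes in this response was not called for any member. The interaction of the 14 ran from 0.20 to 0.40 on the log2 scale, with a smallest adjusted p of 0.346 by edgeR. Under MPTP itself the 14 differed by 0.01 to 0.18 between R3AC+ and R3AC- mice, and under Saline by -0.26 to -0.11. The comparisons share control libraries, so their values stand side by side and are not independent. The 14 were chosen as lower with MPTP in R3AC- mice, and libraries of those groups enter each of these comparisons. The shared directions of the 14 are therefore partly set by that choice.

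**Figure D5:**
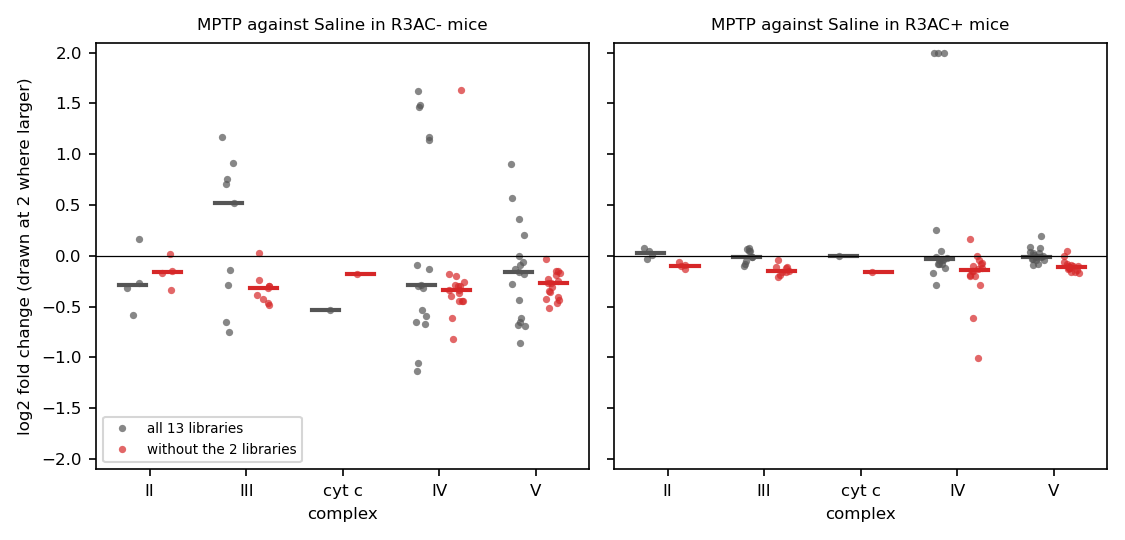
log2 fold change of MPTP against Saline for each tested nuclear member (points) by complex, in R3AC- mice (left) and R3AC+ mice (right), with all 13 libraries (grey) and without R3AC- MPTP replicate 1 and R3AC+ MPTP replicate 4 (red), and the median of each complex as a line. Without the 2 libraries the red medians lie below 0 in every complex, between -0.34 and -0.16 on the left and between -0.16 and -0.10 on the right. Values above 2 (Cox6a2, Cox7a1 and Cox8b with all libraries on the right) are drawn at 2.

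By complex, the medians in R3AC- mice without the 2 libraries were -0.16 over the 4 genes of complex II, -0.31 over 9 nuclear genes of complex III, -0.18 for Cycs, -0.34 over 16 nuclear genes of complex IV and -0.27 over 17 nuclear genes of complex V. All 17 nuclear genes of complex V were below 0. mt-Atp6 and mt-Atp8 had 0.63 (SE 0.314) and 0.39 (SE 0.374), but only 19 to 113 and 9 to 42 counts in the libraries. The values of mt-Atp6, as described above, are not levels of the mitochondrial transcript. The 4 nuclear members nearest to 0 were Sdha, Uqcrc2, Atp5a1 and Atp5b. Sdha had 0.02 (SE 0.0744), Uqcrc2, a core subunit of complex III, 0.03 (SE 0.0953), Atp5a1, the alpha subunit of ATP synthase, -0.03 (SE 0.0805) and Atp5b -0.15 (SE 0.0856). The mitochondrial transcripts mt-Co1 and mt-Cytb had 0.01 (SE 0.0922) and -0.07 (SE 0.0942). None of these 6 was called.

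Cox4i1 and Atp5b are nuclear genes with high counts. Cox4i1 was at 717, 558 and 536 CPM in R3AC- Saline, 487, 541 and 551 in R3AC+ Saline, 748, 418 and 488 in R3AC- MPTP and 435, 465, 471 and 614 in R3AC+ MPTP. Atp5b was at 1539, 1484 and 1357 CPM in R3AC- Saline, 1381, 1397 and 1511 in R3AC+ Saline, 3035, 1273 and 1341 in R3AC- MPTP and 1288, 1444, 1251 and 1696 in R3AC+ MPTP. With all libraries, the log2 fold changes of MPTP against Saline in R3AC- mice were -0.13 for Cox4i1 (SE 0.213), 0.37 for Atp5b (SE 0.275), 0.76 for Uqcrc1 (SE 0.426), -0.27 for Sdha (SE 0.228) and -0.54 for Cycs (SE 0.32). They were -0.34 for mt-Co1 (SE 0.304), -0.49 for mt-Cytb (SE 0.369) and 0.39 for mt-Atp6 (SE 0.342), and no adjusted p of these 8 core genes was below 0.406 by edgeR. Without R3AC- MPTP replicate 1, Uqcrc1 had -0.25 and Atp5b -0.16.

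Of the remaining tissue isoforms, Cox6b2, a form of Cox6b1 known from testis, was at 7.22, 5.98 and 4.71 CPM in R3AC- Saline, 5.76, 4.80 and 3.73 in R3AC+ Saline, 1.19, 2.77 and 3.90 in R3AC- MPTP and 3.84, 2.80, 4.97 and 4.01 in R3AC+ MPTP. Its R3AC- MPTP libraries lay below all R3AC- Saline libraries, with a log2 fold change of -1.14 (SE 0.357, adjusted p = 0.141, edgeR), and -0.82 (adjusted p = 0.0847) without the 2 libraries. Cox4i2, an isoform of Cox4i1 known from lung, was at 2.78, 2.07 and 1.64 CPM in R3AC- Saline, 1.10, 1.51 and 1.41 in R3AC+ Saline, 2.28, 1.43 and 1.72 in R3AC- MPTP and 1.55, 1.12, 1.77 and 1.91 in R3AC+ MPTP. Its log2 fold change with MPTP in R3AC- mice was -0.28 (SE 0.299, adjusted p = 0.663). Both genes were low in all libraries.

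R3AC- Saline replicate 1 bears on the same comparison. Among the 11 libraries other than R3AC- MPTP replicate 1 and R3AC+ MPTP replicate 4, it was the highest for 44 of 53 members, against 22.1% of all genes. With this library left out as well, 9 members were called lower with MPTP in R3AC- mice, against 4.52% of 19047 genes, and all 9 were among the 14. The 14 members then had log2 fold changes from -0.40 to -0.24 in R3AC- mice and from -0.20 to -0.07 in R3AC+ mice, and their interaction ran from 0.08 to 0.27. This alternative was chosen after the values had been seen.

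Under Saline, 0 of 53 members passed the test between R3AC+ and R3AC- mice. The 3 smallest p were those of Cox4i2 (log2 fold change -0.69, SE 0.297), Atp5g2 (-0.20, SE 0.142) and Cox7c (-0.23, SE 0.181), each with an adjusted p of 1.00 (edgeR). Atp5g2, another gene of the c-ring, was at 65.4, 51.2 and 52.1 CPM in R3AC- Saline, 44.2, 49.9 and 52.5 in R3AC+ Saline, 56.9, 44.5 and 52.8 in R3AC- MPTP and 46.5, 47.0, 52.0 and 49.9 in R3AC+ MPTP. Cox7c was at 131, 103 and 82.0 CPM in R3AC- Saline, 88.0, 87.5 and 92.9 in R3AC+ Saline, 83.6, 82.7 and 87.5 in R3AC- MPTP and 78.4, 92.6, 82.0 and 116 in R3AC+ MPTP. In both genes the Saline groups overlapped and R3AC- Saline replicate 1 was highest, while for Cox4i2 they did not overlap. The median over members was -0.14 (all genes -0.01) with all libraries and -0.01 (all genes 0.00) without the 3 libraries. The groups did not overlap for 7 members, lower in R3AC+ mice (5.71% of all genes), and for 0 higher (5.91%).

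Genes that act on the same complexes were examined next. Of 37 assembly factors of complexes II to V, 36 were tested and 0 were called in any comparison with all libraries by edgeR. Without the 2 libraries, 3 of 36 were called lower with MPTP in R3AC- mice, against 4.51% of all genes. They were Bcs1l, which inserts the Rieske protein into complex III (-0.40, adjusted p = 0.0334), Cox14, a complex IV assembly factor (-0.47, adjusted p = 0.0209), and Fmc1, a complex V assembly factor (-0.58, adjusted p = 0.0428). The medians of the list were -0.17 in R3AC- and -0.04 in R3AC+ mice there. Of 13 TCA cycle genes 0 were called with or without these libraries, with medians of -0.06 in R3AC- and -0.07 in R3AC+ mice without them. Of 16 genes of mitochondrial biogenesis and mtDNA expression, 0 were called with all libraries. Without the 2, the nuclear receptor Esrra was lower (-0.33, adjusted p = 0.029) and its corepressor Nrip1 higher (0.46, adjusted p = 0.0203) with MPTP in R3AC- mice.

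Markers of the cell types of the midbrain moved beside these results. The summed level of 8 oligodendrocyte markers was 12830 to 17618 CPM in R3AC- Saline, 15465 to 17355 in R3AC+ Saline, 9495 to 12164 in R3AC- MPTP and 11422 to 14826 in R3AC+ MPTP, and Mog and Cnp were called lower in R3AC- mice. The 9 astrocyte markers summed to 3968 to 4568 CPM in R3AC- Saline and 5434 to 5939 in R3AC- MPTP, with Gfap and Aldh1l1 called higher, and to 4325 to 4772 and 4251 to 4823 in the R3AC+ groups. Gfap alone was at 292, 363 and 342 CPM in R3AC- Saline and 3171, 1242 and 1623 in R3AC- MPTP. The median log2 fold change of the 9 with MPTP in R3AC- mice was -0.26, so the set as a whole was not higher. The 12 dopaminergic markers summed to 600.2 to 713 CPM in R3AC- Saline, 459.8 to 728 in R3AC- MPTP and 581 to 752 in R3AC+ MPTP, with 0 called. The 10 neuron markers summed to 6382 to 7011 CPM in R3AC- Saline, 6719 and 6361 in R3AC- MPTP replicates 2 and 3 and 4505 in replicate 1. The 10 markers of pericytes and vascular smooth muscle summed to 339 to 399 CPM in R3AC- Saline, 341 to 346 in R3AC+ Saline, 222 to 287 in R3AC- MPTP and 307 to 408 in R3AC+ MPTP, with Vtn called lower in R3AC- mice. The 7 microglia markers summed to 235 to 264 CPM in R3AC- Saline, 231 to 251 in R3AC+ Saline, 169.5 to 236 in R3AC- MPTP and 235 to 307 in R3AC+ MPTP. P2ry12, a receptor of resting microglia, was called lower with MPTP in R3AC- mice (log2 fold change -2.79, SE 0.199, adjusted p = 0.000104 by edgeR), higher in R3AC+ than in R3AC- mice under MPTP, and in the interaction. The 7 choroid plexus and 22 muscle markers had 0 called in R3AC- mice.

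In R3AC- mice without the 2 libraries, where the 14 members were called lower, the oligodendrocyte genes Mbp, Mog, Mag and Cnp, the neuron genes Rbfox3 and Tubb3, the pericyte genes Rgs5 and Vtn, the microglia genes P2ry12 and Sall1 and the astrocyte gene S100b were lower by the same test. Gfap, Aldh1l1, Slc1a2 and the dopaminergic gene Ddc were higher. In whole tissue, fewer cells of a type and less RNA per cell cannot be told apart, and the part of cell makeup in the member differences was not tested.

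Some members held the same short motifs in their promoters. Of the 49 nuclear members, 35 were matched in the RefSeq promoter table of GRCm38, which gives 250 bases before and 50 after each gene start, and the windows were searched on both strands. The letters GCGCANGCG, part of the site of nuclear respiratory factor 1, stood in 12 of the 35 (34.3%), and in 6.47% of 27025 promoters. CCGGAAG, a form of the ETS family site that nuclear respiratory factor 2 also binds, stood in 11 (31.4%), and in 9.12% of all promoters. AANATGGCG, part of a YY1 site, stood in 2, Atp5b and Atp5j2 (5.71%), and in 2.51% of all promoters. Atp5h, Atp5k, Atp5l, Cox6a1, Sdhd and Uqcr11 held both of the first 2. No motif contains another. The first and last motif were first searched with 1 more base at the 3′ end and were shortened after those counts had been seen. The longer forms stood in 9 (25.7%) and 1 (2.86%) of the 35 members and in 4.78% and 1.44% of all promoters. These are matches of letters, not sites shown to be bound.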

How the data were processed

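RNA-Seq counts of midbrain from 13 mice in 4 groups were analysed. Per the labels and the study's methods, the authors used Trimmomatic 0.36 for trimming, STAR 2.5.2b for mapping to GRCm38 and featureCounts (Subread 1.5.2) for counts of uniquely mapped reads. The deposited values are raw counts for 49315 genes. The annotation release and the strand setting of the counting are not given in the sources used here. Names came from GENCODE M21 (49056 genes matched, 259 did not). Totals were 11489150 to 29397278 counts per library, which limits low genes.

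Genes with at least 10 counts in 3 libraries (19360 genes) were tested with edgeR 4.0.16 (R 4.3.3) by the quasi-likelihood F test after TMM scaling. Each group had 1 term in a model of the 13 libraries, and p-values were adjusted after Benjamini-Hochberg over these genes, with calls under 0.05. limma 3.58.1, DESeq2 1.42.0, other scalings, no filter, a replicate block and left-out libraries were alternatives. SE is the log2 fold change over the square root of F. The fits were tested on simulated data. Copies were sought with blastn among the transcripts of GENCODE M21 (at least 95% over 100 bases). The members, lists and the libraries left out together were chosen with earlier results of these data known. Named genes were members called or with the 3 smallest p in a comparison, tissue isoforms and core subunits. Members called only under an alternative were named after their values were seen.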

Additional observations from a re-analysis of the deposited data

Results flagged for a closer look

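In the R3AC+ MPTP group of 4 libraries, 15 of 53 tested members had 1 library whose gap to the nearest other, divided by the range, exceeded the critical value of Dixon's test for 4 samples. It was replicate 4, as the highest, in all 15. Over all genes tested, 8.47% had such a library in this group, and chance alone marks about 1 in 20 groups.

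The muscle isoforms were at 82.3 CPM (Cox6a2), 77.9 CPM (Cox7a1) and 35.4 CPM (Cox8b) in replicate 4. Of the other complex IV genes, mt-Co1 was at 23370.2 CPM, Cox5b at 277 CPM and Cox7a2l at 116 CPM. In complex II, Sdha was at 803 CPM and Sdhc at 121 CPM. In complex III, mt-Cytb was at 11381 CPM, Cyc1 at 234 CPM, Uqcrfs1 at 140.3 CPM and Uqcr11 at 80.4 CPM. In complex V, Atp5a1 was at 1188 CPM, Atp5g1 at 274 CPM and Atp5j at 188 CPM. The same library held the heart muscle markers described above, and their part in these values was not tested.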

How the results depend on the processing

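Counts of members called were 0 in every comparison and direction with all libraries and the quasi-likelihood test of edgeR. With MPTP in R3AC- mice they became 4 lower with DESeq2, 8 lower and 1 higher with limma voom, 14 lower without R3AC- MPTP replicate 1 and R3AC+ MPTP replicate 4, 9 lower without these and R3AC- Saline replicate 1, and 0 to 4 lower with 1 library left out. Without R3AC- MPTP replicate 1 alone there were 4 (Atp5k, Atp5l, Cox6a1 and Cox7a2), against 4.25% of 19311 genes called lower. For R3AC+ against R3AC- mice under MPTP, leaving out 1 library gave 0 to 7 lower. Other scalings, no filter and the fit on the groups compared called no member. Depth limits the low isoforms. 

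Same-numbered libraries deviated together at r = -0.18 to 0.18 over 18 pairs, 3 of them above 0.1. These are deviations from means of few libraries, so they cannot tell whether same-numbered samples share a litter or a day. With the replicate block 0 members were called, and the log2 fold changes with MPTP in R3AC+ mice turned to -1.05 for Cox8b and -0.66 for Cox7a1. Only R3AC+ MPTP has a replicate 4, so the block term fits that library by itself, much as if it were left out. These 2 reversals thus cannot be read as an effect of adjusting for replicate number.

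Other directions reversed as follows. With MPTP in R3AC+ mice, leaving out 1 library gave -0.0011 to 5.44 for Cox6a2, -0.998 to 3.83 for Cox8b and -0.62 to 2.52 for Cox7a1, each lowest without R3AC+ MPTP replicate 4. Without the 2 libraries they had -0.0047, -1.002 and -0.61, and without the 3, -0.012, -1.009 and -0.62. For R3AC+ against R3AC- mice under MPTP, leaving out 1 library gave -2.34 to 0.034 for Cox6a1 and -2.11 to 0.14 for Cox5b, each highest without R3AC- MPTP replicate 1. They had 0.0066 and 0.024 without the 2 libraries and 0.0055 and 0.023 without the 3, and Cox5b had 0.039 with limma voom. With MPTP in R3AC- mice, leaving out 1 library gave -0.25 to 1.08 for Uqcrc1 and -0.16 to 0.56 for Atp5b, each lowest without R3AC- MPTP replicate 1. They had -0.18 and -0.14 with limma voom, -0.24 and -0.15 without the 2 and -0.20 and -0.11 without the 3. In the same comparison leaving out 1 library gave -0.46 to 0.0083 for Sdha, highest without R3AC- MPTP replicate 1, and -0.41 to 0.021 for Cox4i1, which was above 0 without R3AC- MPTP replicate 2 or R3AC- Saline replicate 1. Sdha had 0.019 without the 2, mt-Co1 0.0096 and 0.089 without the 2 and the 3, and mt-Cytb 0.0053 without the 3. The cause was not tested.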
